A study of Mus musculus with 4 samples.

Results

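The promoters of 3 genes of the germ line, Dazl, Ddx4 and Sycp3, were followed in mouse embryonic stem (ES) cells that lack Naa10 and in wild-type ES cells. CpG methylation was read by reduced representation bisulfite sequencing, in which fragments cut by MspI at CCGG enrich for CpG-dense DNA. The members were the cytosines with 5 or more calls in every library inside 3 intervals of 6 kb in the mouse build mm9. There were 290 of them among 2468166 such cytosines in all: 164 at Dazl (chr17:50430000-50436000), 75 at Ddx4 (chr13:113439500-113445500) and 51 at Sycp3 (chr10:87919500-87925500). The rule takes the intervals by position and uses no methylation value, although the genes were proposed with results of this series known.

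The groups were Naa10 knockout ES cells (KO, labelled Naa10 KO, 2 libraries) and wild-type ES cells (WT, 2 libraries). Naa10, on the X chromosome, encodes the catalytic part of the NatA enzyme, which acetylates the N termini of proteins. Whether Naa10 was lost cannot be read from methylation calls and was not checked here. Both were kept in N2B27 with LIF and the inhibitors PD325901 of Mek and Chir99021 of Gsk3 on irradiated fibroblast feeders, and then went through 5 passages without feeders. Separate cultures or clones are not stated in the labels. The p-values therefore rest on the spread between libraries that may be technical replicates, and the knockout and the history of a line cannot be told apart.

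Libraries held 68929594 and 70594987 methylation calls in KO and 79540412 and 68586396 in WT, at a median of 21 to 25 calls per shared cytosine. Over all 2468166 cytosines the mean level was 11.4% and 7.69% in KO and 33.0% in each WT library. Counting error alone would put the chi-square between libraries of a genotype, divided by its degrees of freedom, near 1. It was 2.45 for KO (317082 cytosines) and 1.10 for WT (263835 cytosines). Promoters of ES cell genes that could be placed were almost unmethylated: Pou5f1 had 1.90% and 0% in KO and 2.40% and 2.48% in WT over 8 cytosines, and the highest library level was 0.430% at Tfcp2l1 and 0% at Klf4. Of promoters of fibroblast genes, Twist1 had a level of 0% in all libraries, Twist2 reached at most 1.38%, and Col1a2 had 9.22% and 1.03% in KO and 10.9% and 16.5% in WT. Low levels at promoters of either list do not separate ES cells from fibroblasts, and no expression was measured.

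Dazl encodes an RNA-binding protein of the DAZ family that germ cells need to develop. Ddx4, also known as Vasa or Mvh, encodes a DEAD-box RNA helicase of germ granules, and Sycp3 a structural protein of the synaptonemal complex, which holds paired chromosomes in meiosis. Genes of this kind have CpG-rich promoters that carry methylation in most somatic cells and lose it in primordial germ cells, and DNA methylation is known as a main part of their silencing outside the germ line. A silencing complex with E2F6 and with MGA and MAX is also known to bind many of them in ES cells, at E2F-type sites and at E-boxes.

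The promoter sequences are given first because the methylation calls are read from their CpGs. The letters are those of RefSeq for the build GRCm38.p6, 250 bases before to 50 bases after the start site, in the direction of the gene. In that build they are chr17:50293571-50293870, minus strand, for Dazl, chr13:112652261-112652560, minus strand, for Ddx4, and chr10:88459337-88459636, plus strand, for Sycp3; these coordinates cannot be set beside the mm9 positions used in the results. In Dazl and Ddx4 the capitals mark the CpGs read in every library, 8 of 28 in Dazl and 34 of 38 in Ddx4. In Sycp3 they mark an E2F6-type site, 2 E-boxes and the MspI site.
Dazl: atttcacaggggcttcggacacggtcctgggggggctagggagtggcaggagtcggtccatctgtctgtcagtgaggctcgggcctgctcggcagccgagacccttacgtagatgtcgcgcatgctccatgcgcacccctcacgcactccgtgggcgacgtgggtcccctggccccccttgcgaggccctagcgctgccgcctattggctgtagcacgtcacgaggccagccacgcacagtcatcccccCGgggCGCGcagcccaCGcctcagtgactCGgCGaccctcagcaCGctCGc
Ddx4: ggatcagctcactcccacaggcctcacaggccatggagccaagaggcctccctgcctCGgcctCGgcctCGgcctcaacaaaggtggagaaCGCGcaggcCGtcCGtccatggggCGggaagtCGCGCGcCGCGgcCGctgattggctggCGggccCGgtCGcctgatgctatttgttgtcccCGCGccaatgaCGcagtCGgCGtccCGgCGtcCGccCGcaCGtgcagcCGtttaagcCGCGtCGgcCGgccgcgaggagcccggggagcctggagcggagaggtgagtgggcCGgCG
Sycp3: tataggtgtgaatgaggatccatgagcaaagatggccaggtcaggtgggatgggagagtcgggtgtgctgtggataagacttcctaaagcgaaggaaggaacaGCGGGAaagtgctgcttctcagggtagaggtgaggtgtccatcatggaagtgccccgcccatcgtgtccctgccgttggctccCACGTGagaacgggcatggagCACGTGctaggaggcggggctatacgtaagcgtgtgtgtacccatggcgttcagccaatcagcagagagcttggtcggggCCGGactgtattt

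The Dazl and Ddx4 sequences could be placed on mm9 from the files alone, because the spacing of the listed cytosines on a chromosome matched their CpGs at a single best place. For Dazl 30 listed cytosines matched at chr17:50432896-50433195, against 9 at the next best place, which puts its start site at 50432945. For Ddx4 71 matched at chr13:113442469-113442768, against 10 at the next, with the start site at 113442518. Both places lie inside the intervals. The Sycp3 sequence could not be placed in this way, so positions at Sycp3 are given without a distance from the start site. The cytosines measured at Sycp3 may lie outside the printed sequence.

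The promoters differ in CpG content. The Ddx4 sequence holds 38 CpGs with 72.0% G and C, the Dazl sequence 28 CpGs with 68.7%, and the Sycp3 sequence 15 CpGs with 57.0%. Among 32851 promoter sequences of this length the median is 7 CpGs and 52.7% G and C, and 4.95%, 14.2% and 34.6% have as many CpGs as Ddx4, Dazl and Sycp3. The letters TCCCGC or the reverse complement GCGGGA, an E2F6-type site, occur in Ddx4 at -136 and in Sycp3 at -147 bases from the start site, and in 20.0% of all promoters. The E-box CACGTG, its own reverse complement, occurs in Ddx4 at -29 and in Sycp3 at -64 and -43, and in 7.15% of all promoters. Neither set of letters is in the Dazl window. The CRE core TGACG or CGTCA occurs in Dazl and Ddx4 and in 20.8% of all promoters, the CRE TGACGTCA in none of the 3 sequences and in 1.79% of all promoters, and the MspI site CCGG, which decides where reads begin, in all 3 sequences and in 52.8%. The searched letters share no bases with each other in these sequences.

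Methylation was lower in KO in all 3 intervals. The level of an interval is its methylated calls over all calls of its shared cytosines, in a population of cells, so fewer methylated cells and fewer methylated copies per cell cannot be told apart. With no earlier sample of the cells, a fall in KO cannot be told from a rise in WT; fell and lost here describe KO relative to WT.

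At Dazl, the level was 6.35% in KO replicate 1 (95% Wilson interval 5.67 to 7.12, 4328 calls) and 2.26% in KO replicate 2 (1.86 to 2.74, 4384 calls), against 32.9% (31.5 to 34.3, 4183 calls) and 34.8% (33.3 to 36.4, 3497 calls) in the WT libraries. The groups were far apart, and the mean fell to 4.31% ± 2.90 in KO, against 33.9% ± 1.37 in WT (SD, n = 2 each), a difference of -29.6 percentage points with an adjusted p of 5.11e-19 in edgeR's quasi-likelihood test. At Ddx4, the level was 4.40% (3.37 to 5.72, 1182 calls) and 1.65% (1.13 to 2.41, 1572 calls) in KO, against 13.1% (11.6 to 14.8, 1748 calls) and 16.1% (14.5 to 17.9, 1718 calls) in WT. The groups did not overlap, and the mean fell to 3.03% ± 1.94 in KO, against 14.6% ± 2.14 in WT (SD, n = 2 each), a difference of -11.6 points (edgeR, adjusted p = 6.14e-08). At Sycp3, the level was 18.96% (16.8 to 21.3, 1155 calls) and 8.06% (6.73 to 9.61, 1378 calls) in KO, against 47.6% (45.2 to 50.1, 1589 calls) and 50.04% (47.3 to 52.8, 1241 calls) in WT. Again the groups did not overlap, and the mean fell to 13.5% ± 7.71 in KO, against 48.8% ± 1.70 in WT (SD, n = 2 each), a difference of -35.3 points (edgeR, adjusted p = 4.77e-09).

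**Figure D1:**
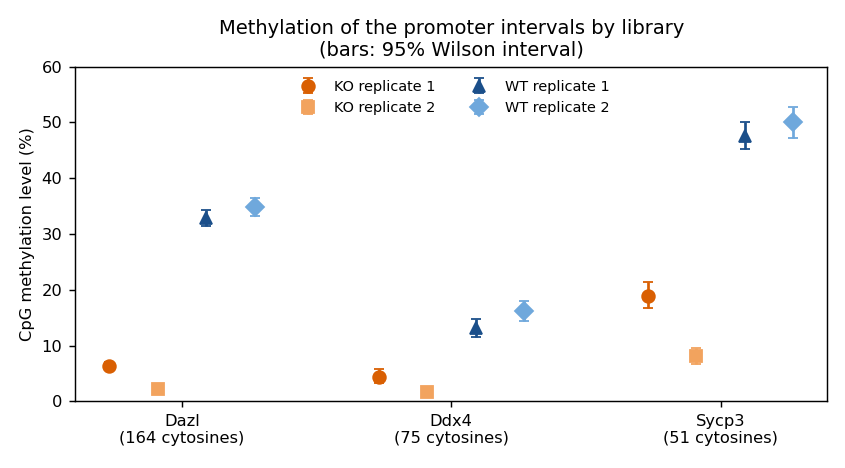
CpG methylation level in percent of the Dazl, Ddx4 and Sycp3 intervals, 1 symbol per library with its 95% Wilson interval for counting error, KO left of WT. Both KO libraries lie below both WT libraries at each gene, and KO replicate 1 lies above KO replicate 2 at each.

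Each interval was called lower. A call required 10 points or more between the group means together with an adjusted p under 0.05. Of the 155255 rows tested, the 1 kb windows of the genome and the 3 intervals, 79.9% were called lower and 0.00386% higher. A lower level is thus what most of these windows showed. Among 1 kb windows of like cytosine number, within 20%, the share called lower differed with that number. It was 0.129% for Dazl (159 cytosines), 2.87% for Ddx4 (75), 9.28% for Sycp3 (51) and 94.6% for the Dazl window of 5. The like windows of the denser members were mostly unmethylated, as described below. The Wilson intervals cover counting error only, since reads were not counted by molecule. Permuting the 4 library levels exactly, two-sided, gave p = 0.333 for each gene, the smallest value that 2 against 2 libraries allow. The Ddx4 difference lies close to the minimum of 10 points, and it was -9.80 points over the 7 cytosines with 20 or more calls in every library, which ended its call.

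The KO libraries did not fall equally. The level in KO replicate 1 was 2.81 times that in KO replicate 2 at Dazl, 2.66 times at Ddx4 and 2.35 times at Sycp3, and over 14 cytosines of the intervals with enough calls the chi-square of the KO pair, divided by its degrees of freedom, was 4.78. For the WT pair it was 1.24 over 89 cytosines. The difference at Sycp3 was -40.8 points without KO replicate 1 and -29.9 points without KO replicate 2, and both stayed past the thresholds in edgeR.

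As a percentage of the WT level, 12.7% was left in KO at Dazl, 20.7% at Ddx4 and 27.7% at Sycp3. On a logit scale the libraries as a whole shifted by -4.47 log2 odds (KO minus WT, median over 1 kb windows of intermediate level), and against that shift the direction turned round: the intervals lay above it by 0.78 (Dazl, adjusted p = 0.197), 1.88 (Ddx4, adjusted p = 0.0236) and 1.74 log2 odds (Sycp3, adjusted p = 0.0256) in limma. The Dazl value pools stretches that differ: its methylated windows of 500 bp lay below the shift, by -0.37 (50432501-50433000, adjusted p = 0.536) and -0.71 (50433501-50434000, adjusted p = 0.268), and its low window above it by 0.81 (50432001-50432500, adjusted p = 0.142), none past the threshold in limma. The levels at Ddx4 and Sycp3 thus fell by less on this scale than the library-wide shift, as did 27.8% of all rows tested, while 4.65% fell by more. The shift was taken over windows with a mean level of 10 to 90%, and the mean level of Ddx4 lies below that range. How far these values depend on the WT level was not tested. Beside windows of like cytosine number and WT level, described below, the KO levels of both genes lay within the quartiles. By the same centring, with 10 points of difference also required, 3 of 7 windows of 500 bp lay above the shift and 0 below (9.99% and 4.07% of all such windows), and 52 and 4 of the 290 cytosines did (6.33% and 4.01% of all cytosines).

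The Dazl interval held an abrupt change of level within it. The measured cytosines ran from -618 to 878 bases from the start site, where negative distances are upstream. Between 472 and 490 bases downstream the WT level dropped: the 5 cytosines next to this point on the side of the start site averaged 7.50% in KO and 66.8% in WT, and the 5 on the far side 0.400% in KO and 14.6% in WT. The place was chosen as the largest step in the WT levels, so the WT step is a description, and so are the stretches formed by it. From the start site to the step, 68 cytosines had a level of 10.1% and 3.61% in KO, against 65.0% and 65.5% in WT, and 66 of them were called lower in the edgeR test. Beyond the step, 90 cytosines had 3 methylated of 1836 calls and 2 of 2065 calls in KO (0.163% and 0.0969%), against 2.92% and 4.12% in WT. This CpG-dense stretch inside the gene was thus nearly unmethylated in both genotypes, and 2 of its 90 cytosines were called lower.

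In windows of 500 bp the same contrast appeared. The window 50432501-50433000 of chromosome 17, with the start site and 65 shared cytosines, had a level of 10.1% and 3.56% in KO, against 64.7% and 65.3% in WT. Its difference was -58.2 points (edgeR, adjusted p = 4.80e-23), and the groups were far apart. The adjoining window 50432001-50432500, deeper in the gene, had 0.618% and 0.366% in KO against 5.58% and 6.36% in WT over 94 cytosines. It passed the adjusted p but not the minimum difference, at -5.48 points (edgeR, adjusted p = 2.61e-12).

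Upstream of the Dazl start site 6 cytosines were read in every library, 1 of them in the printed sequence. That cytosine, at 50432946 (-1), lies in the MspI site, whose cytosines can carry bases filled in during library preparation. Its level was 0% and 8.33% in KO, against 23.1% and 33.3% in WT. The window 50433501-50434000, with 4 cytosines at -567 to -618, had 15.0% (9.31 to 23.3, 100 calls) and 12.5% (6.72 to 22.1, 72 calls) in KO. In WT it had 88.8% (80.0 to 94.0, 80 calls) and 83.0% (73.8 to 89.4, 88 calls), a difference of -72.1 points (edgeR, adjusted p = 1.98e-13). This was the highest WT level and the largest difference among the 7 windows of the 3 genes with at least 3 shared cytosines.

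**Figure D2:**
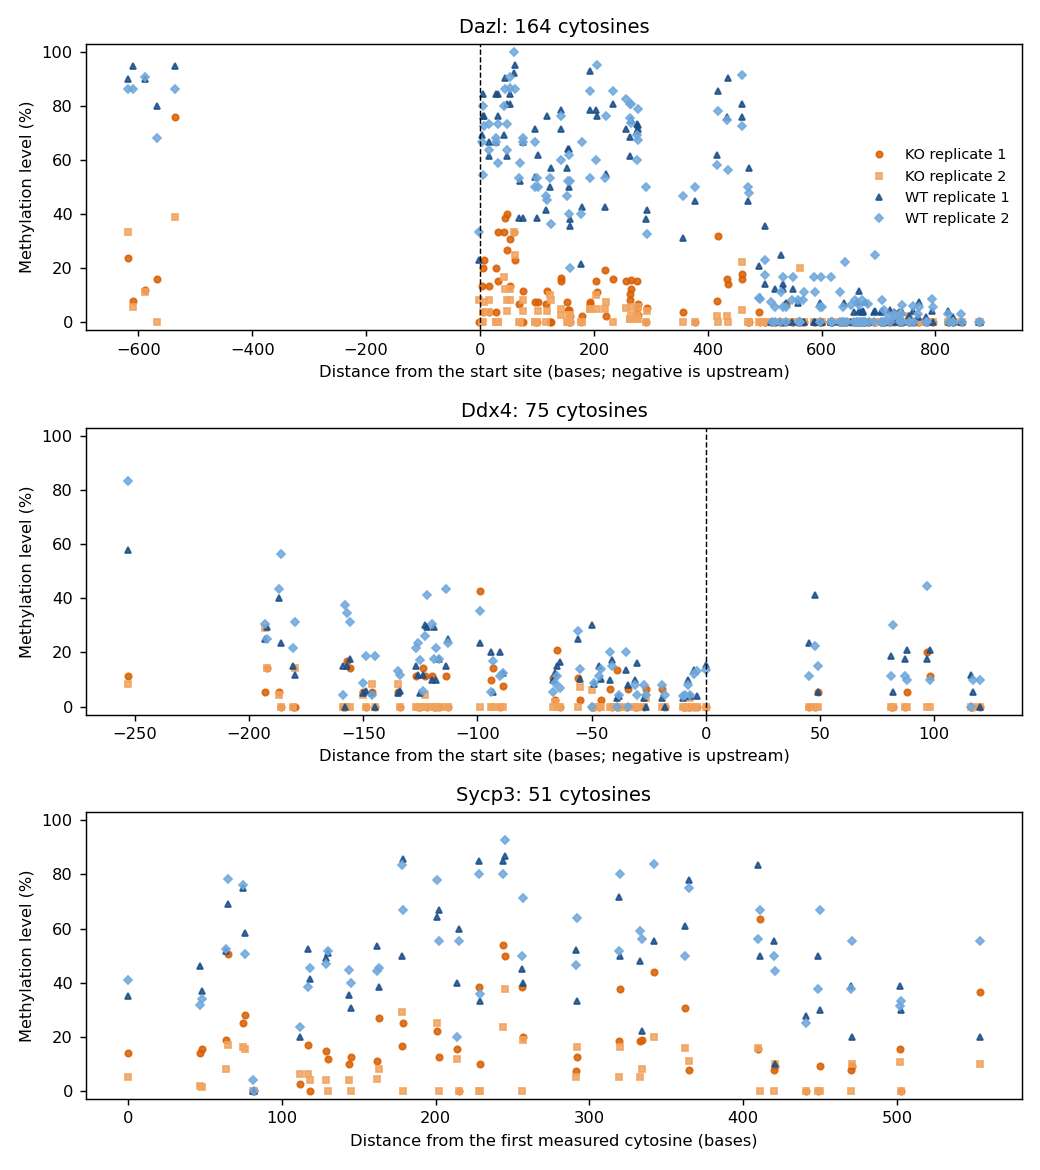
Methylation level in percent of every cytosine shared by the 4 libraries, against its distance in bases from the start site (Dazl and Ddx4, dashed line) or from the first measured cytosine (Sycp3). At Dazl the WT symbols drop between 472 and 490 bases downstream of the start site, at Ddx4 most WT symbols lie below 40%, and at Sycp3 KO and WT symbols are spread over a wide range.

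The cytosines of Dazl also differed among themselves in what KO kept. Of those with a WT mean of 50% or more, the highest KO level was at 50433481 (-536), with 76.0% and 38.9% in KO against 94.7% and 86.4% in WT. It was not called, at -33.1 points (edgeR, adjusted p = 0.0775). The KO libraries decided this: without KO replicate 1 the difference was -51.7 points and was called (edgeR, adjusted p = 0.0123), and without KO replicate 2 it was -14.6 points. At 50432885, 60 bases downstream, each KO library had 33.3%, from 15 and 12 calls, against 92.3% and 100% in WT (edgeR, adjusted p = 0.00130). This call was lost without WT replicate 2 (edgeR, adjusted p = 0.0505). At 50433563 (-618), KO had 24.0% and 33.3%, and the WT mean was 88.2%. At the other end, the cytosines at 50432473, 50432849 and 50432875 had no methylated call in KO, out of 46, 27 and 50 calls, which allows levels of up to 6.52%, 11.1% and 6%. Their WT means were 52.5%, 60.3% and 55.7%, and all 3 were called lower.

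Ddx4 was the least methylated of the 3 intervals in WT. Its measured cytosines ran from -253 to 120 bases from the start site, and all but 1 of the 75 had a WT mean below 50%. The 51 cytosines from -150 to -4 had a level of 4.29% and 1.12% in KO, against 11.1% and 12.9% in WT. At and after the start site, 13 cytosines had 3.27% and 0% in KO, against 15.4% and 14.8% in WT. In KO replicate 2 that was 0 of 142 calls, which allows a level of up to 2.11%. Farther upstream, the 11 cytosines from -253 to -156 had 6.29% and 6.70% in KO, against 23.04% and 36.5% in WT. The WT libraries were farther apart there than in the other stretches of Ddx4.

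Both 500 bp windows of Ddx4 were called lower. The window 113442501-113443000 of chromosome 13 held 63 cytosines and had 4.50% and 1.78% in KO, against 12.8% and 16.3% in WT, a difference of -11.4 points (edgeR, adjusted p = 4.81e-07). Without WT replicate 2 this difference was -9.64 points, below the minimum for a call. The window 113442001-113442500 held 12 cytosines and had 3.62% of 138 calls and 0 of 110 calls in KO, where the 0 allows up to 2.73%, against 15.4% and 14.9% in WT. Its difference was -13.4 points (edgeR, adjusted p = 0.000119).

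At the level of single cytosines 7 of the 75 at Ddx4 were called lower. The only cytosine with a WT mean of 50% or more was the one farthest upstream, at 113442771, with 11.1% and 8.33% in KO against 57.9% and 83.3% in WT (edgeR, adjusted p = 0.000532). Its call was lost without WT replicate 2, at -48.2 points (edgeR, adjusted p = 0.0560). The CpG of the Ddx4 E2F6-type site was low in both groups, with KO means of 6.94% and 0% on the strands and WT means of 9.02% and 8.82%. The CpG of its E-box had KO means of 0% and 4.90% and WT means of 5.67% and 2.17%. Neither was called, and the calls behind each value were 7 to 32 per library, which cannot show a difference of a few points. The CpG of the CRE core had KO means of 5.26% and 4.85% and WT means of 26.4% and 12.1%, and was not called either (edgeR, adjusted p = 0.206 and 0.512).

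Sycp3 kept more methylation in KO than Dazl or Ddx4 did, as a level and as a percentage of WT, in interval totals whose order was not tested. All shared cytosines lay within 555 bases, from 87922370 to 87922924 on chromosome 10. The window 87922001-87922500 held 14 of them and had 18.8% and 6.91% in KO, against 45.2% and 44.3% in WT, a difference of -31.9 points (edgeR, adjusted p = 6.42e-07). The window 87922501-87923000 held the other 37 and had 19.115% and 9.04% in KO, against 49.9% and 55.5% in WT, a difference of -38.7 points (edgeR, adjusted p = 3.00e-08). The KO levels of the windows differed by less than the spread of the KO libraries. Within the interval, the middle 17 cytosines, from 87922533 to 87922690, had 23.2% and 12% in KO, against 57.0% and 61.5% in WT. The 17 before them had 17.8% and 6.46% in KO, against 44.2% in each WT library, and the 17 after them had 17.5% and 7.33% in KO, against 45.5% and 53.3% in WT.

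Neighbouring CpGs of Sycp3 differed widely. The highest KO levels among cytosines with a WT mean of 50% or more were those of the CpG at 87922614 and 87922615, whose strands had KO means of 38.7% and 43.8% and WT means of 82.5% and 89.8%. The cytosine at 87922435 had 50.7% and 16.9% in KO, from 71 and 65 calls, against 69.1% and 78.3% in WT (edgeR, adjusted p = 0.00362). The calls at these 3 cytosines were lost without KO replicate 2 and without either WT library in turn, and the differences without KO replicate 2 were -28.7 (87922614), -39.8 (87922615) and -23.0 points (87922435). The lowest KO levels in the same class were at 87922585, with 0 of 19 calls, which allows up to 15.8%, and at 87922790 and 87922500, with means of 3.85% and 5.77%. Their WT means were 57.8%, 52.8% and 51.3%. The call at 87922790 was lost without KO replicate 2 (edgeR, adjusted p = 0.0685).

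A CpG of Sycp3 at 87922451 and 87922452, picked out after its values were seen, had almost no methylated call in any library. In KO it had 0 of 53 calls on 1 strand and 0 of 28 on the other, which allows up to 5.66% and 10.7%, and in WT 1 of 57 and 0 of 33. The CpG next to it, at 87922445 and 87922446, had KO means of 20.5% and 21.8% and WT means of 75.5% and 54.5%. Calls numbered 71 and 65 in KO and 79 and 69 in WT at 87922446. At 87922452 they numbered 17 and 11 in KO and 19 and 14 in WT. Cytosines of MspI sites can carry bases filled in during library preparation. Whether the CpG at 87922451 and 87922452 lies in such a site was not checked.

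Over the 3 genes, 112 of the 290 cytosines were called lower in KO, 72 at Dazl, 7 at Ddx4 and 33 at Sycp3. That is 38.6% of the members, near the 34.6% of all 2468166 cytosines called lower; 0 members were called higher, as were 0.00146% of all cytosines. At an unadjusted p below 0.05 there were 78, 19 and 38. In 190 of the 290 the KO levels lay wholly below the WT levels, and 6 of the 290 had a higher mean in KO, 3 each at Dazl and Ddx4. For these counts and those at an unadjusted p the share of all cytosines was not taken. Without that share, these counts cannot show whether the members differ from other cytosines. Among the 83 member cytosines with a WT mean of 50% or more, 78 (94.0%) were called lower, against 90.3% of the 866577 such cytosines of the genome. At Ddx4, cytosines with no methylated call numbered 42 and 61 in KO, against 5 and 4 in WT, and at Sycp3 7 and 17 in KO, against 2 and 1 in WT. Such counts depend on depth. At Ddx4 the median depth was 15 and 24 calls in KO and 20 and 23 in WT, and the lowest 5 in KO and 9 in WT. The share of all cytosines with no methylated call was not taken. The median difference of the members was -16.0 points, against -2.17 points over all cytosines. These medians were not matched for WT level, which limits how far a level can fall. Without WT replicate 1 the number called was 72. For CpGs read on both strands, 76 at Dazl, 35 at Ddx4 and 22 at Sycp3, the median gap between strands was 0 to 6.84 points in KO and 2.73 to 7.20 points in WT by gene. The 0 is that of Dazl, where many cytosines had no methylated call in KO. The largest gaps were 10.9 points in KO and 24.0 points in WT at Dazl and 10.5 and 21.6 points at Ddx4. At Sycp3 they were 20.4 points in KO, at 87922434 and 87922435 (13.4% and 33.8%), and 47.98 points in WT. That WT gap lay at 87922598 and 87922599, whose means were 19.2% and 5% in KO and 82.5% and 34.5% in WT. The strands of a CpG come from separate reads but from the same DNA, so these cytosines are not independent.

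Of the 7 windows of 500 bp, 6 were called lower in KO, against 75.6% of the 176988 windows of the genome, and 0 were called higher, against 0.00339%.

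CpG-dense windows elsewhere in the genome were mostly unmethylated in both genotypes, and the dense windows of the members stood out by their level in both. The 1 kb window of Dazl with 159 shared cytosines (50432001-50433000) had a mean level of 3.83% in KO and 32.4% in WT. The 1548 windows with a like number of cytosines, within 20%, had a median of 0.225% in KO and 0.269% in WT, and 0.0646% of them had a WT level as high as that of Dazl. For Ddx4, with 75 cytosines, the 4467 like windows had medians of 0.272% in KO and 0.395% in WT, and 2.66% had a WT level at or above the 14.6% of Ddx4. For Sycp3, with 51 cytosines, the 4988 like windows had medians of 0.341% in KO and 0.643% in WT. Of them, 3.47% had a WT level at or above the 48.8% of Sycp3. The shares with a KO level at or above that of the member were 0.0646% for Dazl, 4.72% for Ddx4 and 3.33% for Sycp3. The sparse upstream window of Dazl (50433001-50434000, 5 cytosines) was close to its 54137 like windows, with 22.5% in KO and 86.8% in WT against medians of 20.7% in KO and 86.5% in WT.

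**Figure D3:**
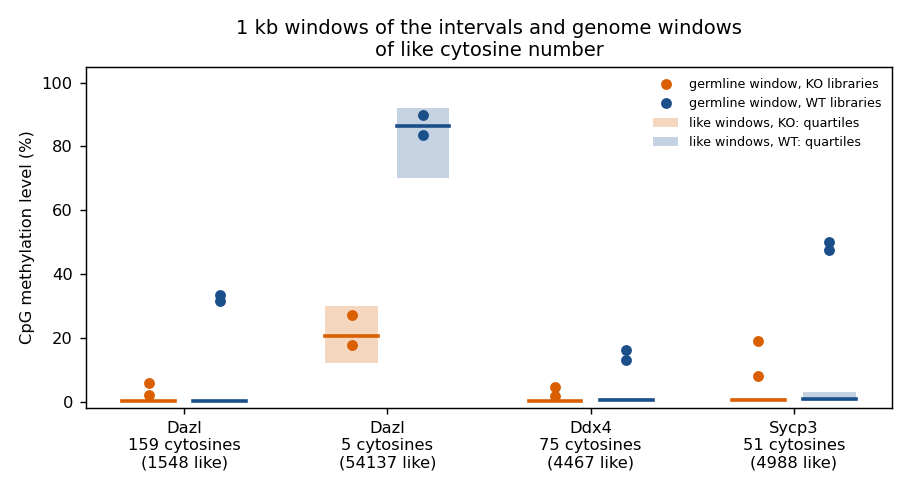
CpG methylation level in percent of the 1 kb windows of the intervals in each library (points, KO left of WT) beside all 1 kb windows with a like number of shared cytosines (bars, quartiles; lines, medians of the group means). The dense windows of Dazl, Ddx4 and Sycp3 lie above the quartiles of their like windows in both genotypes, and the sparse Dazl window lies within them.

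Set beside windows that were also methylated to a like degree, the KO levels of Sycp3 and Ddx4 lay within the quartiles. Among 38 windows with a like number of cytosines and a WT level within 5 points of that of Sycp3, the median KO level was 12.7%, with quartiles of 9.80% and 15.6%, and Sycp3 had 13.5%. Among 137 such windows for Ddx4 the median KO level was 3.66%, with quartiles of 2.62% and 5.04%, and Ddx4 had 3.03%. No such window was found for the dense Dazl window. These are descriptions of the same libraries, with no test.

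Promoters of other germline genes were read in the same way where their sequence could be placed on the listed cytosines. A list of 53 genes of meiosis, the piRNA pathway and testis was used, which was not drawn up from these values but with the results of the series as a whole known. Of the 46 with a promoter sequence, 22 could be placed by their best match, and 17 had at least 3 shared cytosines. In KO 15 of these 17 were called lower (edgeR, adjusted over 7959 placed promoters), where 3.48% of all placed promoters were. Their median level was 5.27% in KO and 41.2% in WT, against 0.225% in KO and 0.282% in WT over all placed promoters. A WT level of 50% or more was found in 7 of the 17 and in 1.82% of all placed promoters. All 7 were called lower, as were 142 of the 145 placed promoters with such a WT level. The WT level was below 10% in 2 of the 17 and in 95.2% of all placed promoters, where a fall of 10 points is not possible. The 3.48% is thus not a share among promoters of like WT level. The rule of a best match was chosen after seeing the data. The planned rule, a single place on the chromosome with at least 8 matches, left 8 of these genes, all called lower, where 38.3% of the 2372 promoters it kept were. It is the less reliable of these rules, since it put 19.4% of the promoters it placed out of the order of the gene table, against 0.0347% for the best match, so its 38.3% includes misplaced promoters.

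Genes of the meiotic chromosome axis and synaptonemal complex were among them. Sycp1, the transverse filament protein that works with Sycp3, had 32.8% and 20.2% in KO, against 72.8% and 71.2% in WT (edgeR, adjusted p = 7.49e-07). Hormad1, an axis protein, had 4.79% and 2.15% in KO, against 38.1% and 44.4% in WT, and Hormad2 had 2.30% and 0.795% in KO, against 20.9% and 19.3% in WT. Both were called lower. Mei4, which is needed for meiotic DNA breaks, was unmethylated in both groups, at 0.456% and 0.113% in KO and 0.313% and 0% in WT over 31 cytosines.

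Genes of the piRNA pathway, which silences transposons in germ cells, were methylated in WT to differing degrees. Fkbp6 had 7.90% and 2.64% in KO, against 88.03% and 81.7% in WT, the largest difference of the 17 promoters (edgeR, adjusted p = 6.49e-32). Asz1 had 17.6% and 9.32% in KO, against 68.2% and 76.05% in WT, and Gpat2 had 1.69% and 1.72% in KO, against 40.0% and 39.4% in WT. Both were called lower, and in each the KO libraries lay far below the WT libraries.

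Among RNA-binding proteins and other testis genes, Boll, a relative of Dazl, resembled Ddx4 in level, with 6.28% and 1.43% in KO against 17.7% and 15.6% in WT over 70 cytosines. Tex101, a surface protein of germ cells, had the highest mean level of the 17 in WT, with 31.2% and 23.1% in KO against 91.1% and 88.7% in WT. Taf7l, an X-linked relative of a general transcription factor subunit, had 31.9% and 8.86% in KO against 88.5% and 82.1% in WT over 8 cytosines. Slc25a31, a mitochondrial ADP/ATP carrier of testis, had 21.9% and 7.51% in KO against 60.5% and 51.3% in WT. Rpl10l, a ribosomal protein retrogene, had 2.60% and 1.81% in KO against a mean of 35.4% in WT, and Dmrtb1, a regulator of entry into meiosis, a mean of 9.16% in KO against 40.1% in WT. Tuba3a, a testis tubulin, had a mean of 13.9% in KO against 74.4% in WT, and it has a near-identical copy, so its reads may be shared with that copy. All of these were called lower. Gpat2, Dmrtb1 and Tex14 were named after their values were seen. Tex14, an intercellular bridge protein, was not called and had 0.833% and 0.752% in KO against 2.65% and 2.94% in WT.

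**Figure D4:**
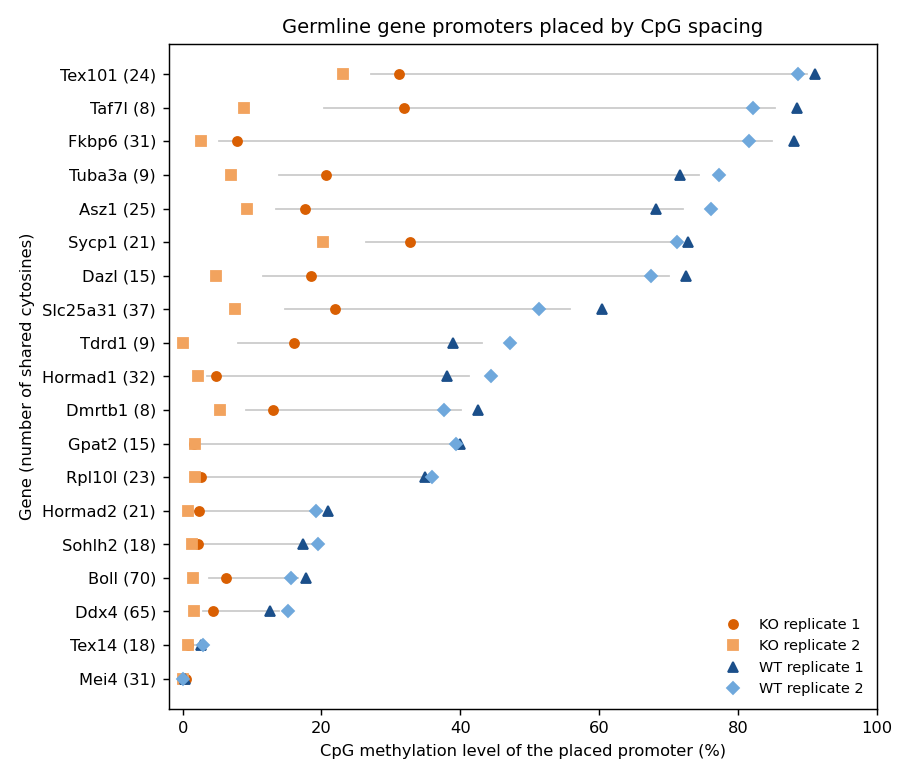
CpG methylation level in percent of 19 germline gene promoters (Dazl, Ddx4 and 17 others), ordered by WT mean, 1 symbol per library, with the number of shared cytosines in brackets and a line between the group means. KO symbols lie left of WT symbols in all but Mei4, and the WT means run from 0.157% at Mei4 to 89.9% at Tex101.

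The promoter windows of Dazl and Ddx4 lay within this range. Over the placed 300 bases, Dazl had 18.5% and 4.74% in KO against 72.5% and 67.5% in WT over 15 cytosines (edgeR, adjusted p = 4.29e-10), and Ddx4 had 4.36% and 1.64% in KO against 12.6% and 15.2% in WT over 65 cytosines (edgeR, adjusted p = 1.21e-06).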

How the data were processed

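Each deposited table covers 1 library and gives raw counts of methylated and unmethylated calls at every listed cytosine, with the percent methylated. The deposited counts were used, and the deposited percent equals the methylated count over both. The submitters' processing notes list Bismark 0.10.1, Trim Galore and mm9 without their roles; how reads were trimmed or duplicates treated is not given in the sources used here. MspI digestion of 50 ng lasted 3 hours and fragments of 150 to 500 bp were kept, per the labels' protocols. Cytosines of MspI sites can carry bases filled in during library preparation.

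Shared cytosines (chromosomes 1 to 19, X and Y) had 5 or more calls in every library. They were summed over intervals and over 500 bp and 1 kb windows with at least 3 of them. Tests were edgeR 4.0.16 (R 4.3.3) quasi-likelihood fits over each whole table, with terms for library, for methylation and for its interaction with genotype, and Benjamini-Hochberg adjustment. Features whose calls were all methylated or all unmethylated could not be fitted and were counted as not called. Calls required 10 points of difference at an adjusted p under 0.05. On simulated 500 bp windows edgeR recovered most changes of the larger size simulated, with few false calls. There limma made no calls and Fisher's exact test made many false ones. In that setting limma and Fisher were weak checks. The simulation gave KO and WT the same spread between libraries, unlike the data, and single cytosines were not simulated. It also changed only a small share of windows, all of intermediate to high level, whereas most windows of the data were called lower. How often each test makes calls there thus does not carry over to these data. Library levels were compared by exact permutation (scipy 1.17.1). The alternatives were limma 3.58.1 on logit levels with 0.5 added to each count, centring, Fisher's exact test, other minimums, each library left out and a replicate block.

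Promoter sequences were placed where every listed cytosine in their span fell on a CpG. The planned rule, a single place with at least 8 matches, put 574 of 2959 promoters out of the order of the gene table. A best place with at least 12 matches and 6 more than the next, chosen after seeing the data, put 3 of 8651 out of order. Named were the 3 genes with all their windows, the 3 highest and 3 lowest cytosines in KO at a WT mean of 50% or more, and, of other germline promoters, the 10 with most cytosines, and the 3 highest and 3 lowest in KO at a WT mean of 50% or more; a few others were named after their values were seen. The members and lists were chosen with earlier results of these data known.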

Additional observations from a re-analysis of the deposited data

How the results depend on the processing

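The differences at Dazl, Ddx4 and Sycp3 kept their sign and their calls with a minimum of 10 calls, without the deepest sites, with limma, with cytosines weighing the same and over the central 2 kb, which holds all shared cytosines. The exception was Ddx4 at a minimum of 20 calls, with -9.80 points over 7 cytosines (adjusted p = 2.26e-05), below the minimum difference. Leaving out 1 library gave -31.6 to -27.5 points at Dazl, -13.1 to -10.07 at Ddx4 and -40.8 to -29.9 at Sycp3, where a lone library was assumed to vary like the other group. Centring on the library-wide shift turned the sign, to 0.78, 1.88 and 1.74 log2 odds at Dazl, Ddx4 and Sycp3. Centring itself places features on both sides, and counts of features below the shift were 0 of 7 windows (3 above, where 9.99% of all windows were), 4 of 290 cytosines (52 above) and 0 of 8 promoters.

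The number of 500 bp windows called lower was 6 of 7. It was 3 of 5 at a minimum of 20 calls and 5 to 6 with a library left out. The number of cytosines called lower was 112 of 290. It was 54 of 81 at a minimum of 20 calls, where fewer cytosines were tested, and 72 to 114 with a library left out. The cause of the lowest value, without WT replicate 1, was not tested beyond the smaller number of libraries. At these other settings the share of all cytosines called lower was not taken, so the counts there are set against no background. All 8 germline promoters with a single place were called lower in KO with any library left out. By the best place, run with all 4 libraries only, 15 of 17 were.

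With the replicate number as a block the differences stayed at -29.6 (Dazl), -11.6 (Ddx4) and -35.3 points (Sycp3) and were called. The block gave 6 windows, 100 cytosines and 8 promoters. Same-numbered libraries did not deviate together (r = -0.00460 over 123506 windows), so the numbers were not taken to pair the libraries. Depth limits single cytosines most, since many have fewer than 20 calls per library.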
